A study of Mus musculus with 6 samples.

Results

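Deoxynucleotides are the building blocks of DNA, and cells make them or recover them with a small set of enzymes. The 9 genes described here encode that set. They comprise the ribonucleotide reductase subunits Rrm1, Rrm2 and Rrm2b, the thymidylate route enzymes Tyms, Dut and Dctd, the salvage kinases Tk1 and Dck, and the deoxynucleotide hydrolase Samhd1. Each symbol matched 1 row of the 43346 gene rows of the deposited count table, through GENCODE M21 names for the Ensembl identifiers. The libraries came from primary mouse embryonic fibroblasts of the C57BL/6 strain at passage 9. These are cells grown out of mouse embryos that divide for a limited number of passages. Of the 6 libraries, 3 were from cells given the solvent DMSO for 24 h and 3 from cells given 3 µM erastin for 24 h. Erastin blocks the exchange of cystine for glutamate across the cell membrane and is used to induce ferroptosis, an iron-dependent form of cell death. Both groups shared the same medium, with fetal bovine serum and added mercaptoethanol, a reducing agent. The comparison asks how the transcripts for making and recovering deoxynucleotides differed between the treatments.

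As background, ribonucleotide reductase turns ribonucleotides into deoxyribonucleotides and is a complex of a large subunit (Rrm1) with a small one. The usual small subunit in dividing cells is that of Rrm2, made in S phase and destroyed at mitosis. Rrm2b, a target of p53, encodes an alternative that serves DNA repair and mitochondrial DNA in cells that do not divide. Thymidylate is made from deoxyuridylate by thymidylate synthase (Tyms) or recovered from thymidine by the cytosolic thymidine kinase (Tk1), both known as genes of dividing cells. Samhd1 works in the opposite sense and breaks deoxynucleoside triphosphates down.

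With erastin 4 of the 9 genes were lower and 0 higher in edgeR's quasi-likelihood test, at an adjusted p-value under 0.05 over the 14000 genes tested. Tk1 was 12.1-fold lower, Samhd1 2.36-fold, Tyms 1.66-fold and Rrm2 1.61-fold. The other 5 genes, Rrm1, Rrm2b, Dut, Dctd and Dck, did not pass. Among all genes tested, 21.5% were called lower and 21.6% higher, 43.1% in all, while 44.4% of the 9 were lower. The median log2 fold change of the 9 genes was -0.25, against -0.0014 for all genes tested. Unadjusted, the same number of the 9 genes, 4, had a p-value under 0.05. All 9 passed the filter on low counts.

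The starts of 4 of these genes are shown because they part the set: Tk1, Rrm2 and Tyms, which fell, and Rrm1, which encodes the partner of Rrm2 and did not pass. Each stretch begins 250 bases before the RefSeq start and runs 5′ to 3′ on the gene's strand (GRCm38.p6). It stops at the start or at the first base of any GENCODE exon. Capitals mark an E2F core (either TTCCCGC or else TTCGCGC or else TTGCCGC or else TTGGCGC), the letters CCAAT (known as the CCAAT box), a CHR element (either TTTGAA or else TTCGAA) or a GC box (the letters GGGCGG), each searched on both strands. No base lay under more than 1 of them.
Tk1 (chr11:117826093-117826264, minus strand): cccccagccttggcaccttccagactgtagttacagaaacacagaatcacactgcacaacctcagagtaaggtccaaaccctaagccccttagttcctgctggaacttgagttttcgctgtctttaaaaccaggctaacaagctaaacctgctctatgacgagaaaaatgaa
Rrm2 (chr12:24708004-24708240, plus strand): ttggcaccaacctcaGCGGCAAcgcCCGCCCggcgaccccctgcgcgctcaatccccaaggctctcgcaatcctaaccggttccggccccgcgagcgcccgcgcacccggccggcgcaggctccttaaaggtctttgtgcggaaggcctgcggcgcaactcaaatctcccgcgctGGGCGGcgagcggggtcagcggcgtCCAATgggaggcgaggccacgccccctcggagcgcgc
Tyms (chr5:30073626-30073875, minus strand): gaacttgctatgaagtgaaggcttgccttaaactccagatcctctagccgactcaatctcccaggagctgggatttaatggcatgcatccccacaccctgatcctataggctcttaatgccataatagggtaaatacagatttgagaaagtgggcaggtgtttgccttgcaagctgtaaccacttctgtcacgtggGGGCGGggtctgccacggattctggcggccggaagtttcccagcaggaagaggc
Rrm1 (chr7:102441445-102441694, plus strand): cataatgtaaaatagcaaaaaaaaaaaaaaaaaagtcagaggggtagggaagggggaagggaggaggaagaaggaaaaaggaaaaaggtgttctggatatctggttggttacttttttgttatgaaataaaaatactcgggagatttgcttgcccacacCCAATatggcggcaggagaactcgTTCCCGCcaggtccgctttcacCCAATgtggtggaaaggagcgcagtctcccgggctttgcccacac

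An E2F core was found in 7.89% of the 32851 RefSeq starts searched, a CCAAT box in 33.8%, a CHR element in 17.1% and a GC box in 32.7%, all over the 250 bases before the start. Of the 8 genes with a start in the table (all but Rrm2b), 2 held an E2F core, Rrm1 and Rrm2. In Rrm1 its bases lay 67 to 61 before the start, and in Rrm2 235 to 229 before it. Rrm1 also held 2 CCAAT boxes and Rrm2 held 1, 50 to 46 bases before the start. Dctd, the other of the 3 genes with a CCAAT box, held it before 2 of its 3 RefSeq starts. A CHR element lay before 1 gene, Dck, 245 to 240 bases before the start. The printed stretch of Tk1, of 172 bases, held none of the 4 elements, and its only match was a GC box 13 to 8 bases before the start, past the end of the stretch. Tyms held 1 GC box, 54 to 49 bases before the start. A GC box lay before 7 of the 8 genes, those that fell and those that did not pass alike, and not before Rrm1. The core of the antioxidant response element (TGACNNNGC), bound by NRF2, lay before Rrm2 and Dck, 2 of the 8 genes, and before 10.2% of all starts. The ATF4 composite element core (TGATGNAA) lay before 0 of the 8 genes and 3.45% of all starts.

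Library totals ran from 13333911 to 20509970 counts, and 3 counts, taken as the floor of detection, were worth 0.14 to 0.234 CPM (the usual scaling of a count by its library total, here with TMM factors). Floors cover counting error only. The labels do not say whether the 3 libraries of a group came from separate cultures, so the p-values measure the spread between these libraries, which may be technical. Of 11 fibroblast markers, such as Col1a1, Col1a2, Thy1 and Pdgfra, all were expressed in every library and 9 were lower with erastin. Their sum was 35800 to 38800 CPM in the DMSO group and 25700 to 27100 CPM in the erastin group. For markers of macrophages and other leukocytes the sums were 26.5 to 47.7 CPM (DMSO) and 31.0 to 63.6 CPM (erastin), with 0 of 8 called (edgeR; 2 at an unadjusted p-value under 0.05, Cd68 and Lyz2, with means of 2.00 and 19.0 CPM in DMSO and 4.18 and 31.4 CPM with erastin). Endothelial markers gave sums of 4.66 to 7.10 CPM (DMSO) and 13.2 to 16.4 CPM (erastin), and Kdr and Tek, 2 of the 4, were called higher. The other 2, Pecam1 and Cdh5, had at most 15 reads in a library. Epithelial markers summed to at most 3.65 CPM, and 5 of the 6 had at most 14 reads in a library. None of these markers was at 0 in all libraries. Their part in the values below was not tested. In bulk RNA, fewer cells that express a gene and less of its RNA per cell cannot be told apart.

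**Figure D1:**
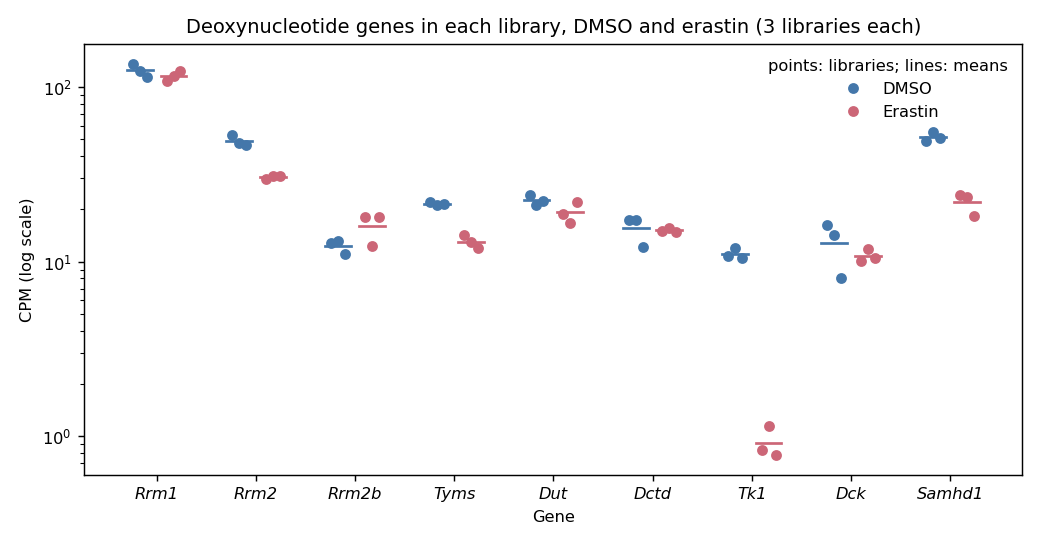
Level of each of the 9 genes (x axis) in CPM on a log scale (y axis). Points are the 3 DMSO (blue) and 3 erastin (red) libraries and lines are group means. The Tk1 points of the erastin libraries lie between 0.778 and 1.14 CPM, all below the DMSO points at 10.5 to 12.0 CPM.

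Among the ribonucleotide reductase genes, the S-phase small subunit fell and the large subunit did not pass in the reported fit. Rrm1 (ENSMUSG00000030978.9, chr7:102441695-102469771, plus strand, GRCm38) had 136, 123 and 114 CPM in the 3 DMSO libraries and 108, 115 and 123 CPM in the 3 erastin libraries. The groups overlapped, with means of 124 ± 11.1 and 115 ± 7.87 CPM (SD, n = 3). The log2 fold change was -0.11 (SE 0.09, 95% interval -0.30 to 0.08, edgeR adjusted p = 0.356). With an offset that removed trends with GC content and transcript length it was -0.22 and passed (edgeR adjusted p = 0.0459, range over its 15 alternatives 0.0459 to 0.773).

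Rrm2 (ENSMUSG00000020649.7, chr12:24708241-24714146, plus strand) had 53.0, 47.9 and 46.5 CPM in DMSO and 29.8, 31.0 and 30.7 CPM in erastin libraries. Every erastin library lay below every DMSO library, and the erastin libraries were close to each other. The means were 49.2 ± 3.43 and 30.5 ± 0.605 CPM (SD, n = 3), a log2 fold change of -0.69 (SE 0.10, edgeR adjusted p = 6.94e-05).

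Rrm2b (ENSMUSG00000022292.11, chr15:37923952-37961318, minus strand) was the only one of the 9 with a positive fold change. Its levels were 12.8, 13.1 and 11.0 CPM in DMSO and 17.9, 12.2 and 17.9 CPM in erastin libraries. Erastin replicate 2 lay within the DMSO range and the other two above it. The log2 fold change of 0.38 did not pass (SE 0.19, 95% interval -0.01 to 0.78, edgeR adjusted p = 0.111). Without erastin replicate 2 it was 0.54 and passed (edgeR adjusted p = 0.0305, range over its 15 alternatives 0.0305 to 0.533). With the GC and length offset it was 0.17 and did not pass (edgeR adjusted p = 0.472). The processed pseudogene Gm3362 lies inside Rrm2b on the same strand and had 2 to 4 reads (DMSO) and 8 to 21 reads (erastin) in a library.

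Ratios between genes within a library need no scaling between libraries, and 5 were compared, as counts per kilobase of all annotated exons. Rrm2 over Rrm1 was 1.55, 1.54 and 1.63 in DMSO and 1.10, 1.07 and 0.989 in erastin libraries, 1.49-fold lower on the mean of the logarithms. Rrm2b over Rrm2 was 0.073, 0.0829 and 0.0715 in DMSO and 0.182, 0.119 and 0.177 in erastin libraries, 2.07-fold higher. The ratio of the 2 small subunits was thus higher in every erastin library than in any DMSO library, and Rrm2 was the more abundant of them in all 6. Rrm2b over Rrm1 was 0.113, 0.128 and 0.116 in DMSO and 0.200, 0.128 and 0.175 in erastin libraries, with the highest DMSO and lowest erastin library equal at this precision. For Rrm2 over Rrm1 and Rrm2b over Rrm2 the libraries of the 2 treatments did not overlap. With 3 libraries against 3 the exact two-sided permutation test cannot go below p = 0.1, which each of the 5 ratios gave, and the value adjusted over the 5 was also 0.1.

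**Figure D2:**
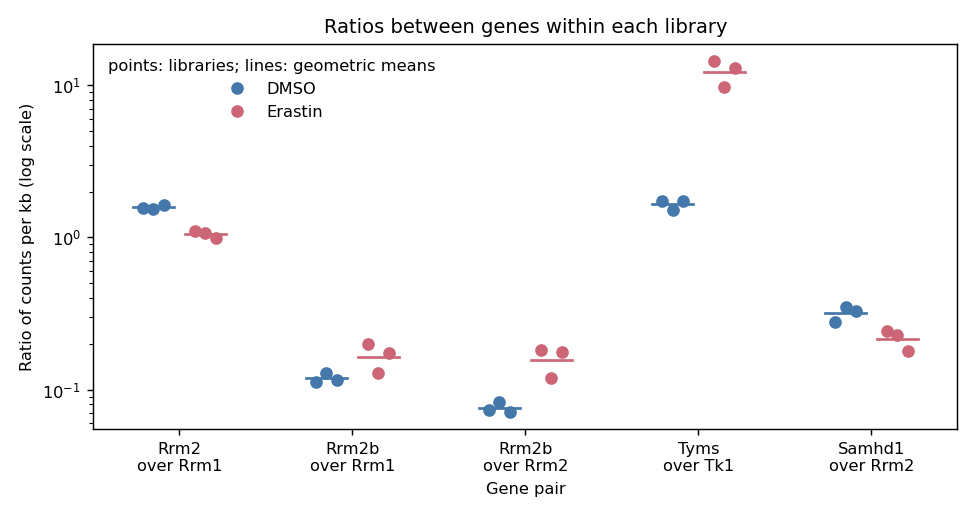
Ratio of counts per kilobase of exon between pairs of the genes (x axis) within each library, on a log scale (y axis). Points are libraries (DMSO blue, erastin red) and lines are geometric means. Tyms over Tk1 lies at 1.51 to 1.73 for DMSO and at 9.66 to 14.3 for erastin.

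Of the thymidylate route genes, Tyms fell and the 2 that feed it deoxyuridylate did not pass. Tyms (ENSMUSG00000025747.8, chr5:30058202-30073617, minus strand) had 21.8, 21.2 and 21.3 CPM in DMSO and 14.1, 12.9 and 11.9 CPM in erastin libraries. The groups did not overlap, and the DMSO libraries were nearly equal. The means were 21.5 ± 0.326 and 12.9 ± 1.09 CPM (SD, n = 3), a log2 fold change of -0.73 (SE 0.15, edgeR adjusted p = 0.000929).

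Dut (ENSMUSG00000027203.11, chr2:125247190-125258608, plus strand) encodes the hydrolase that removes deoxyuridine triphosphate and yields deoxyuridylate. It had 23.9, 21.0 and 22.2 CPM in DMSO and 18.7, 16.6 and 22.0 CPM in erastin libraries. Erastin replicates 1 and 2 were below all DMSO libraries and replicate 3 was within their range. The log2 fold change was -0.22 (SE 0.15, 95% interval -0.54 to 0.09, edgeR adjusted p = 0.233).

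Dctd (ENSMUSG00000031562.11, chr8:48099092-48153233, plus strand) encodes the deaminase that makes deoxyuridylate from deoxycytidylate. Its levels were 17.3, 17.2 and 12.1 CPM in DMSO and 14.9, 15.6 and 14.8 CPM in erastin libraries, so that the erastin libraries lay inside the DMSO range. The log2 fold change of -0.04 did not pass (95% interval -0.41 to 0.33, edgeR adjusted p = 0.872), and its sign turned with scaling by total count, to 0.021, and without DMSO replicate 1 or DMSO replicate 2, to 0.039 and 0.042.

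Tk1 (ENSMUSG00000025574.9, chr11:117815526-117826092, minus strand) showed the largest fall of the 9. It had 143, 217 and 135 reads in the DMSO libraries and 18, 19 and 15 in the erastin libraries. In CPM this was 10.8, 12.0 and 10.5 against 0.838, 1.14 and 0.778. No erastin library came near the DMSO range, and all were above the floor of 3 counts. The means were 11.1 ± 0.806 and 0.918 ± 0.193 CPM (SD, n = 3), a log2 fold change of -3.60 (SE 0.29, 95% interval -4.22 to -2.98, edgeR adjusted p = 2.07e-07). It ranked 36 from the lowest log2 fold change of the 14000 genes tested. The gene Afmid overlaps Tk1 on the other strand, and whether counting used the strand is not given in the sources used here. Afmid had 6 to 14 reads (DMSO) and 6 to 17 reads (erastin) in a library (edgeR adjusted p = 0.902).

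Salvage and synthesis of thymidylate can be set side by side through these genes. The interval of the log2 fold change of Tk1 lay wholly below that of Tyms, which was -1.04 to -0.42. Tyms over Tk1, per kilobase, was 1.73, 1.51 and 1.73 in DMSO and 14.3, 9.66 and 13.0 in erastin libraries, 7.37-fold higher (exact two-sided permutation p = 0.1, the smallest possible, n = 3 each). It was the largest shift among the 5 ratios.

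Dck (ENSMUSG00000029366.9, chr5:88764996-88783281, plus strand) encodes the kinase that recovers deoxycytidine, deoxyadenosine and deoxyguanosine. It had 16.2, 14.1 and 8.10 CPM in DMSO and 10.1, 11.8 and 10.5 CPM in erastin libraries. DMSO replicate 3 was the lowest of all 6, and the other two DMSO libraries were above all erastin libraries. The log2 fold change was -0.25 (SE 0.23, 95% interval -0.74 to 0.24, edgeR adjusted p = 0.403). Without DMSO replicate 3 it was -0.49 and passed (edgeR adjusted p = 0.0434, range over its 15 alternatives 0.0434 to 0.885).

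Samhd1 (ENSMUSG00000027639.12, chr2:157097533-157135265, minus strand), whose product breaks deoxynucleoside triphosphates down, fell as well. It had 49.0, 55.2 and 50.7 CPM in DMSO and 24.0, 23.5 and 18.2 CPM in erastin libraries. The groups did not overlap. The means were 51.6 ± 3.16 and 21.9 ± 3.23 CPM (SD, n = 3), a log2 fold change of -1.24 (SE 0.12, edgeR adjusted p = 1.52e-06). Samhd1 over Rrm2, per kilobase, was 0.280, 0.349 and 0.330 in DMSO and 0.244, 0.230 and 0.180 in erastin libraries, 1.47-fold lower (exact two-sided permutation p = 0.1, n = 3 each). The fall of Samhd1 was thus the larger of the pair in these libraries. Samhd1 is known as a gene of macrophages and other myeloid cells. The summed leukocyte markers given above overlapped between the groups, and whether such cells had a part in the Samhd1 values was not tested.

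Taking the 9 genes by overlap, the groups were separate in 4, the same 4 that were called, against 52.5% of all genes tested. The fold changes of the 4 kept their sign and stayed past the threshold in all 15 alternatives run for each. For Tk1 they ran from -3.77 to -3.50, for Samhd1 from -1.31 to -1.12, for Tyms from -0.80 to -0.66 and for Rrm2 from -0.74 to -0.62.

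**Figure D3:**
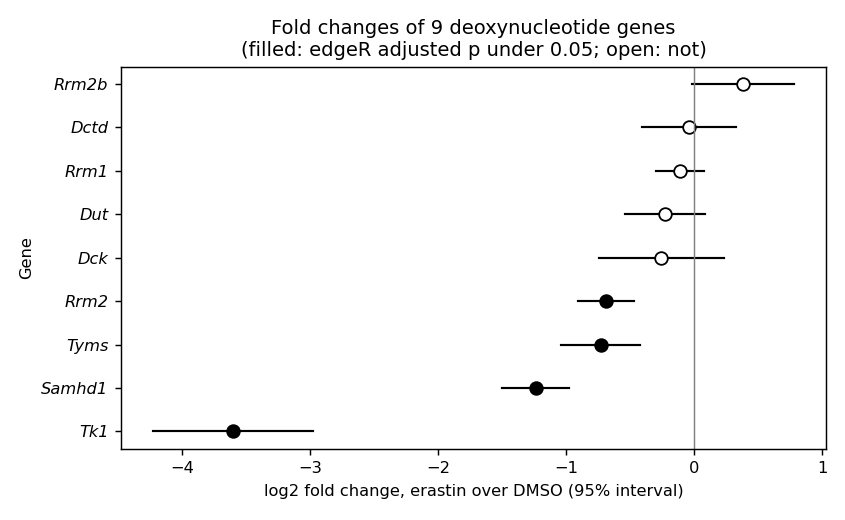
Log2 fold change of each gene (y axis), erastin over DMSO (x axis), with 95% intervals from the edgeR fit of 3 against 3 libraries. Filled points passed at an adjusted p-value under 0.05. Tk1 stands apart at -3.60, and the intervals of the 5 open points include 0.

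Between genes, levels can be compared only per length. Per kilobase of all annotated exons, the order in DMSO libraries was Rrm2 (17.7 ± 1.24 CPM per kilobase), Rrm1 (11.3 ± 1.01), Dut (9.28 ± 0.598), Samhd1 (5.64 ± 0.345), Dctd (4.55 ± 0.877), Tyms (3.53 ± 0.0535), Dck (3.39 ± 1.12), Tk1 (2.14 ± 0.155) and Rrm2b (1.34 ± 0.124), each as SD with n = 3. The ranges of the libraries overlapped between Dctd and Tyms, Tyms and Dck, and Dck and Tk1. In erastin libraries Rrm2 (11.0 ± 0.218 CPM per kilobase) and Rrm1 (10.5 ± 0.714) overlapped, Samhd1 (2.40 ± 0.353) stood sixth, and Tk1 (0.177 ± 0.0371) was last, behind Rrm2b (1.75 ± 0.360). Samhd1 overlapped with Tyms (2.12 ± 0.180), and Tyms with Rrm2b. The order rests on the length used. Per kilobase of the longest transcript, Rrm1 (22.7 ± 2.03 CPM per kilobase) and Rrm2 (22.4 ± 1.56) overlapped in DMSO, and Rrm1 (21.1 ± 1.44) was above Rrm2 (13.9 ± 0.276) with erastin.

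The genes around these 9 in deoxynucleotide metabolism were counted next. Of 27 other genes for phosphorylating, breaking down, cleaning and transporting deoxynucleotides and nucleosides, 24 were tested. In edgeR 7 were lower (29.2%, against 21.5% of all genes tested) and 1 was higher (4.17%, against 21.6%). Their median log2 fold change was -0.25. Ada, which deaminates adenosine and deoxyadenosine, fell from 28.5 ± 3.41 CPM to 5.51 ± 2.76 (SD over 3 libraries each), a log2 fold change of -2.36 (edgeR adjusted p = 9.05e-06). Nt5c, a nucleotidase that acts on deoxynucleotides, fell from 53.6 ± 1.24 to 34.1 ± 4.57 CPM (edgeR adjusted p = 0.000222). Slc29a1, a nucleoside transporter, fell from 24.4 ± 1.49 to 14.7 ± 1.43 CPM (edgeR adjusted p = 0.00069). Itpa, which removes inosine and deoxyinosine triphosphate, was the 1 gene that rose, from 14.2 ± 0.451 to 27.1 ± 1.67 CPM (edgeR adjusted p = 5.17e-05).

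Neighbours of Tyms and Tk1 in the pathway, chosen after their values were seen, had smaller fold changes than Tk1. Dtymk, the kinase that takes thymidylate onward from both routes, had a log2 fold change of -0.57 (95% interval -0.87 to -0.27, edgeR adjusted p = 0.00398). Tk2, the mitochondrial thymidine kinase, had 19.3 ± 4.94 CPM in DMSO and 14.7 ± 1.17 with erastin (SD over 3 libraries each), a log2 fold change of -0.39 (95% interval -0.79 to 0.01, edgeR adjusted p = 0.105) and did not pass. The interval of Tk1, -4.22 to -2.98, does not overlap with those of Dtymk or Tk2.

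Genes for making ribonucleotides, the substrates of ribonucleotide reductase, were counted in the same way. Of 12 genes of purine synthesis 4 were higher (33.3%, against 21.6% of all genes tested) and 2 lower (16.7%, against 21.5%). Their median log2 fold change was 0.19. Atic and Pfas, which catalyse steps of the route to inosinate, had log2 fold changes of 0.37 and 0.40 (edgeR adjusted p = 0.00394 and 0.00501). Impdh1 and Impdh2, which turn inosinate toward guanine nucleotides, were at -0.53 and -0.46 (edgeR adjusted p = 0.00265 and 0.00319). These counts turned with the processing, to 2 higher and 3 lower with the GC and length offset or without DMSO replicate 3. They were 2 higher and 2 lower with upper-quartile factors, without erastin replicate 1 or without erastin replicate 2. Of 8 genes of pyrimidine synthesis and uridine phosphorylation, 2 were higher and 0 lower (edgeR; 4 at an unadjusted p-value under 0.05 and 2 called by DESeq2), with a median of 0.11. The share called higher was 25.0%, against 21.6% of all genes tested. Both that rose, Uck2 (157 ± 6.02 CPM in DMSO, 232 ± 17.8 with erastin, SD over 3 libraries each; edgeR adjusted p = 3.9e-05) and Uck1 (log2 fold change 0.45, edgeR adjusted p = 0.0141), encode uridine and cytidine kinases, which recover nucleosides. Uckl1 and Ctps were at 0.30 and 0.18 and did not pass (edgeR adjusted p = 0.0583 and 0.0976). The rest of the list, named after their values were seen, are genes of pyrimidine synthesis. Umps was at 0.048, Cad at -0.135, Dhodh at -0.18 and Ctps2 at -0.244, and none passed (edgeR adjusted p at least 0.171). The positive median is thus that of kinases and synthesis genes together. Without erastin replicate 1, 1 of the 8 was called.

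The fall of Tk1 was at the low end of those of the cell cycle genes. Genes known to peak at the entry into S phase (a list of 40, without the 9) had a median log2 fold change of -0.71, with 22 lower and 0 higher (edgeR; 29 at an unadjusted p-value under 0.05 and 23 called by DESeq2). Examples are Mcm5 at -2.24, Dtl at -1.62, Uhrf1 at -1.43 and Mcm6 at -0.87. Genes known to peak in G2 and mitosis (a list of 50) had a median of -1.99, with 41 lower and 3 higher, as in Mki67 at -3.26, Top2a at -2.32, Ube2c at -2.16 and Anln at -1.98. Of the S-phase list 0 genes, and of the mitotic list 0 genes, had a lower log2 fold change than Tk1. Several mitotic genes, named after their values were seen, were close to it, with intervals that overlapped that of Tk1, such as Kif2c at -3.49 (95% interval -4.11 to -2.87) and Birc5 at -3.47 (95% interval -4.26 to -2.68). Samhd1 had 10 S-phase genes and 34 mitotic genes below it. Rrm2 and Tyms each had 20 of the 40 S-phase genes and 35 of the 50 mitotic genes below them. Rrm1 had 33 and 44, and Rrm2b 39 and 47. Of these lists 55.0% and 82.0% of the genes were called lower, against 21.5% of all genes tested.

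**Figure D4:**
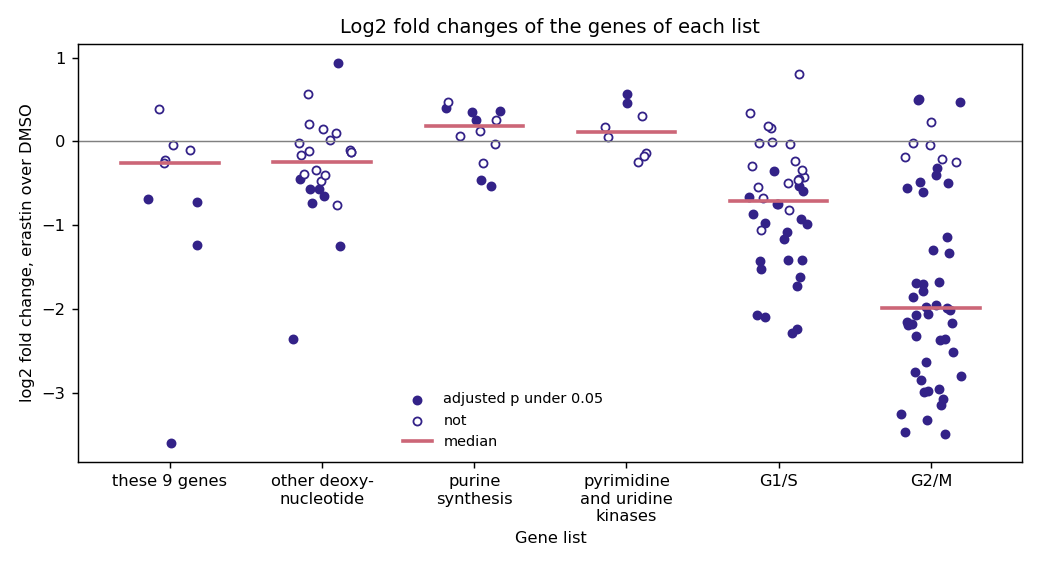
Log2 fold change, erastin over DMSO (y axis), of every tested gene of 6 lists (x axis). Filled points passed at an edgeR adjusted p-value under 0.05, open points did not, and lines are list medians. Medians run from 0.19 for purine synthesis to -1.99 for the G2/M genes, and Tk1 is the lowest point of all.

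Among 20 genes known to act on the 9, on their products or on such regulators, 6 were lower and 2 higher. These are 30.0% and 10.0%, against 21.5% and 21.6% of all genes tested. The median log2 fold change of the 20 was -0.22, and 1 of them, Cdk1, is also in the mitotic list. Those lower were the cyclin gene Ccna2 at -2.87, E2f7 at -2.67 and E2f8 at -1.89, which encode repressors of S-phase genes, the kinase gene Cdk1 at -1.69, Rbl1 at -0.72, and Ccnf at -0.68, whose product marks the Rrm2 protein for destruction (edgeR adjusted p at most 0.00995). Those higher were Mdm2 at 1.19 and Cdkn1a at 0.91, both targets of p53, as Rrm2b is (edgeR adjusted p = 7.25e-09 and 7.5e-08). Trp53 itself, at 112 ± 5.03 CPM in DMSO and 124 ± 12.2 with erastin, and the activator gene E2f1, at 39.4 ± 4.33 and 34.1 ± 3.12, did not pass (SD over 3 libraries each; edgeR adjusted p = 0.219 and 0.170).

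For each gene that was called, the 2 tested genes of the most similar pattern were found among 11252 others with a mean count of at least 50. Likeness was the root mean square difference of log2 CPM over the 6 libraries, after centring each gene on its mean. Nearest to Tk1 were Kif2c, which encodes a mitotic kinesin, at a difference of 0.0864, and Gm42743 at 0.137. Kif2c had 11.5 ± 0.206 CPM in DMSO and 1.02 ± 0.273 with erastin. Nearest to Rrm2 were Tagln (0.0161) and Cyb5a (0.0297), to Tyms Fam171a1 (0.0386) and Tram2 (0.0449), and to Samhd1 H2afx (0.0475) and Nfic (0.0608).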

How the data were processed

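Read counts per gene were deposited by the authors for 6 libraries, without normalization; per the submitters' processing notes, HTSeq 0.9.1, SAMtools and the build mm10 were used, while the aligner, strand setting and handling of reads that match several genes are not given in the sources used here. Sequencing followed rRNA depletion and was done on an Ion Proton, per the labels. All 6 columns were matched to samples, with 0 left unused. Of 43346 rows, 42462 (98%) had a GENCODE M21 symbol.

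Counts were tested with edgeR 4.0.16 in R 4.3.3: genes kept by filterByExpr (10 counts in 3 libraries and 15 in total), TMM factors, and the quasi-likelihood test with treatment as the only term, over 3 DMSO and 3 erastin libraries. The Benjamini-Hochberg adjustment ran over the 14000 genes tested. Standard errors came from the fitted weights and the quasi-dispersion. The method was tested on simulated data. Ratios were tested with SciPy 1.17.1. For likeness, 0.5 CPM was added before taking logarithms.

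Library totals of 13333911 to 20509970 counts gave floors of 0.14 to 0.234 CPM. No pair of replicates agreed within sampling noise (chi-square per degree of freedom 11.0 to 19.2 within groups). Alternatives were RLE and upper-quartile factors, total counts, no filter, a filter of 1 CPM in 3 libraries, the replicate block, DESeq2 1.42.0, an offset for GC content and length (mgcv 1.9-3) with and without the block, leaving out each library, and, for ratios, the length used.

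The 9 genes and all lists were chosen with earlier results of these data known. The genes named with values are the 9, the 4 genes per list that had the lowest p-values (any of the 20 regulators), the 2 most similar to each called gene, and annotated genes that overlap 1 of the 9; others are said to have been chosen after their values were seen. Pnp, 1 of the 27 other deoxynucleotide genes, matched no symbol.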

Additional observations from a re-analysis of the deposited data

How the results depend on the processing

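The number of the 9 genes called ran from 4 to 5 over 15 alternatives, and the 4 reported as lower passed in every one. A replicate block gave 5882 calls over all genes, against 6028 without it, and changed no call among the 9. Equally numbered libraries had correlations of -0.0055 to 0.0401 across genes. Such values cannot show whether equally numbered libraries shared a culture or day. Paired by number, the 5 ratios gave an exact sign-flip p of 0.25, the smallest possible, and kept their direction. With the GC and length offset, Rrm1 passed at -0.224 and Rrm2b was at 0.171 in place of 0.384, the causes of which were not tested. With scaling by total count, Dctd was at 0.021 and 4 pyrimidine and uridine genes were called, where the median of all genes moved from -0.0014 to 0.0646. Leaving out 1 library moved Dctd between -0.192 and 0.042, Rrm2b between 0.296 and 0.544, Dck between -0.494 and -0.056, and the pyrimidine count between 1 and 3. Per length of the longest transcript, the DMSO log2 ratio of Rrm2 over Rrm1 was -0.016 in place of 0.654. Depth limits Tk1 most, with 15 to 19 reads in the erastin libraries.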
